A study of Mus musculus with 15 samples.

Results

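The change from naive to activated B cells was followed by comparing RNA-seq libraries of naive B cells (nB) with those of activated B cells (actB) whose cultures held DMSO, the vehicle of the drug used in other cultures of the series. These 2 groups hold 6 of the 15 libraries of the series, 3 in each, and were compared over all genes with a symbol. Of 21669 such genes, 11299 were tested, after a filter on low values that asked for an RPKM (reads per kilobase of gene length and 1000000 reads) of 1 or more in 3 or more of the 15 columns. All cells came from the spleens of female C57BL/6J mice aged 6 to 9 weeks. The nB cells were CD43- B cells collected from a magnetic column, for which the labels list neither a stimulus nor a drug. The actB cells were CD43- splenic B cells that had been kept for 3 days ex vivo with LPS, Il2, Il5, and DMSO, and were then sorted as B220+GL7+CD138-. Culture, the time since isolation from the spleen, the stimulus, DMSO, and the sort therefore differ together between the groups, and their effects cannot be told apart. B220 is carried by B cells, GL7 by B cells that have been activated, and CD138 by plasma cells, so that cells which had already become plasmablasts (Pb) were left out of actB by the sort.

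LPS (lipopolysaccharide) is a bacterial membrane component that B cells sense through Toll-like receptor 4 and the receptor RP105. A resting B cell that is triggered in this way leaves quiescence, grows, divides, and can then change its antibody class, become an antibody-secreting plasmablast, or do both. Quiescence is kept by factors such as KLF2 and FOXO1, B cell identity by PAX5 and EBF1, and antigen presentation to T cells by MHC class II molecules under the coactivator CIITA. Plasma cell formation is driven by BLIMP-1 (*Prdm1*), IRF4, and XBP1, and it needs a large endoplasmic reticulum (ER) with its chaperones.

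Between 22897224 and 24265139 reads were counted in each compared library, and the limit of 3 reads behind a count of 0 is worth 0.124 to 0.131 RPM (reads per 1000000). The columns of nB replicates 1 and 2 differed by less than the sampling noise, with a chi-square per degree of freedom of 0.00958 where every other pair of one group gave at least 3.58. They were counted as 1 sample, the averaged nB library, so that n = 2 in nB and n = 3 in actB DMSO. The averaged library held reads of 17436 genes, against 15437 in nB replicate 3 and 14577 to 14853 in actB DMSO. In 1722 genes it was the only one of the 5 libraries with reads, with a median of 2 reads. Replicate 2 of actB DMSO stood apart from the other two: 115 genes were at least 2-fold higher and 24 at least 2-fold lower in it than in their mean. Some of the results that rest on it are given with and without it. The labels do not say whether libraries of one group came from separate mice, so that p-values measure only a spread between libraries. For each gene this spread was taken within all 5 groups of the series together, not within the 2 compared groups alone.

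Most of the genes tested differed between naive and activated B cells. As a check that the libraries are of B cells, the B cell antigen CD20, *Ms4a1*, was at 278 and 307 RPKM in nB and 194, 190.2, and 212 RPKM in actB DMSO and was thus abundant in all 5 libraries. Both groups are B cells, so this does not check which label belongs to which group. By limma on log2(RPKM + 0.25), 8719 of the 11299 genes (77.2%) were called changed at an adjusted p under 0.05, 4617 higher (40.9%) and 4102 lower (36.3%) in actB DMSO. At least 2-fold changes were called for 1682 genes that were higher (14.9%) and 1507 that were lower (13.3%). Which direction held more calls depended on scaling. With libraries scaled to a median ratio of 0, 4277 were higher and 4487 lower, 1516 and 1647 of them at least 2-fold. By edgeR, 4368 were higher and 4392 lower with TMM factors, and 4193 and 4565 with RLE factors. Changes of at least 8-fold were called for 255 genes (2.26%) in each direction. The libraries of the groups did not overlap in 83.4% of all genes tested. The median log2 fold change was 0.05, with quartiles of -0.52 and 0.64, and the median was -0.02 with libraries scaled to a median ratio of 0. A list of genes must therefore be read against a background where most genes pass. Across genes, which are not independent replicates, Pearson's r of log2 expression was 0.993 between the nB libraries, 0.989 to 0.996 among actB DMSO, and 0.806 to 0.821 between the groups. From under 1 RPKM in every nB library to at least 5 RPKM in every actB DMSO library went 96 genes, and 86 genes went the opposite way. The values are relative to the reads of each library, with no added standard, and in bulk RNA fewer cells of a type and less RNA per cell cannot be told apart.

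**Figure D1:**
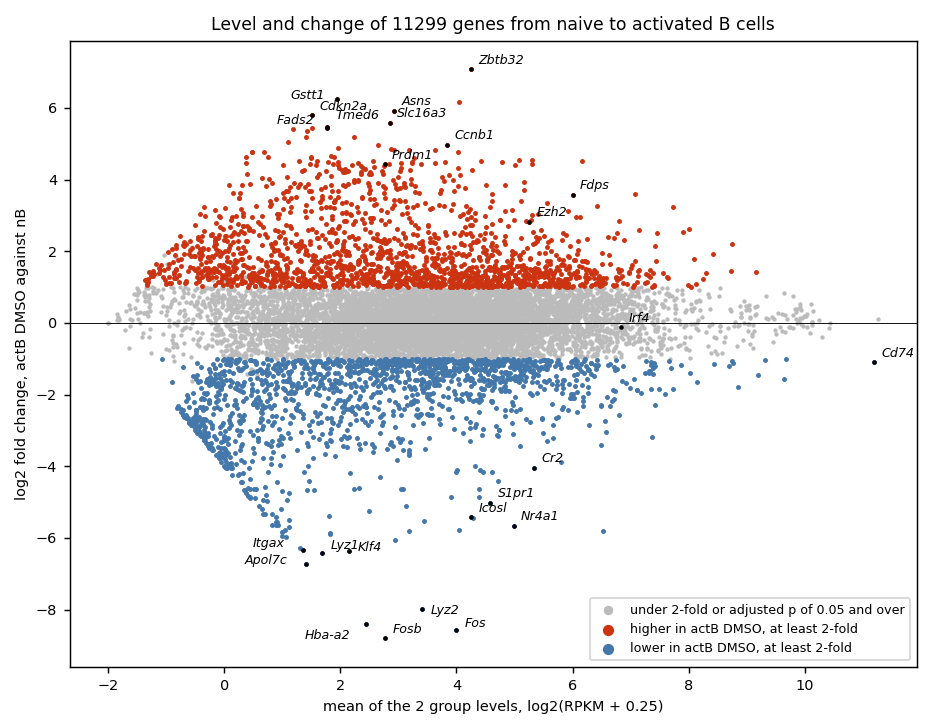
Each point is 1 of the 11299 genes tested; the horizontal axis gives the mean of the group levels as log2(RPKM + 0.25) and the vertical axis the log2 fold change of actB DMSO against nB. Red points are the 1682 genes called at least 2-fold higher and blue points the 1507 called at least 2-fold lower, with the largest changes reaching from -8.80 (*Fosb*) to 7.08 (*Zbtb32*).

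In what follows, the values of a gene are RPKM in the averaged nB library and nB replicate 3, and then in actB DMSO replicates 1, 2, and 3. Log2 fold changes are those of actB DMSO over nB, with their standard error, and adjusted p-values are from limma over all genes tested. Counts of list members are given with the median log2 fold change of the list. The sources used here do not say whether reads were counted by strand, so that those of *Bach2*, *Bcl2*, *Cd180*, *Cd7*, *Cdc20*, *Cdc45*, *Ddit3*, *Dnmt3a*, *E2f8*, *Egr1*, *Ezh2*, *Foxo1*, *G6pdx*, *H2-Aa*, *H2-Ab1*, *Hmces*, *Hsp90b1*, *Irf7*, *Jun*, *Kdm6b*, *Pax5*, *Psma5*, *Rps2*, *Slc16a3*, *Slc2a1*, *Suz12*, *Trp53bp1*, and *Vars* could include reads of a gene that overlaps them on the opposite strand.

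The mitotic apparatus was the group that rose most. All 44 members of the list of mitosis and cytokinesis genes were called higher and all were at least 2-fold higher, with a median of 3.83. Their summed reads went from 862 and 945 RPM in nB to 10910, 9004, and 10943 RPM in actB DMSO. Cyclin B1, *Ccnb1*, which activates CDK1 for entry into mitosis, rose from 1.996 and 2.58 to 85.4, 61.2, and 93.8 RPKM (log2 fold change 4.97 ± 0.19, adjusted p = 1.63e-10). Its partner kinase *Cdk1* rose from 1.41 and 2.11 to 45.6, 36.95, and 48.6 RPKM (log2 fold change 4.46 ± 0.15, adjusted p = 3.95e-11). DNA topoisomerase II alpha, *Top2a*, which untangles sister chromatids, rose from 7.29 and 8.52 to 193, 176, and 205 RPKM (log2 fold change 4.56 ± 0.09, adjusted p = 7.87e-13). Each of these was low in both nB libraries, and every actB DMSO library was far above them. *Mki67*, the antigen used to stain cycling cells, rose from 6.49 and 10.1 to 202, 161, and 186 RPKM (log2 fold change 4.45 ± 0.16, adjusted p = 7.26e-11), and *Foxm1*, a transcription factor of the G2 phase, rose from 3.53 and 3.68 to 35.9, 32.6, and 36.6 RPKM (log2 fold change 3.19 ± 0.06, adjusted p = 7.87e-13). The member with the smallest change was *Smc4*, a condensin subunit, at 49.2 and 52.8 RPKM in nB and 142, 124, and 142 RPKM in actB DMSO (log2 fold change 1.41 ± 0.07, adjusted p = 2.71e-09). Replicate 2 was the lowest actB DMSO library for 43 of the 44 members, where 42.6% of all genes tested were lowest in it.

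Promoters of mitotic genes are known for a CHR element (TTTGAA) close to the start site, often with CCAAT boxes upstream of it. The stretches before the start sites of *Cdk1*, *Cdc20* (the activator of the anaphase-promoting complex), and *Top2a* show both, with CHR and CCAAT letters of either strand in capitals (reverse matches read TTCAAA and ATTGG). They are RefSeq promoter sequences of GRCm38.p6, from chr10:69352913-69353012 on the minus strand, chr4:118437344-118437413 on the minus strand, and chr11:99024190-99024299 on the minus strand, each ending at the base before the start site.
Cdk1: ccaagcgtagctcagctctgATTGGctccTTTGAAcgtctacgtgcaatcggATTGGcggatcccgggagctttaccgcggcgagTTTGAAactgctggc
Cdc20: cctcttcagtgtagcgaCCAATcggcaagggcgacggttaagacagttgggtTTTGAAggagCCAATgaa
Top2a: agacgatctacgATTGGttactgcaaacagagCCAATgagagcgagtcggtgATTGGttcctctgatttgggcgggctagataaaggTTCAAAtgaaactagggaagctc

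In the 250 bases before the start, TTTGAA on either strand was found in 15 of 38 promoters of the list (39.5%, for 36 of 44 genes with an entry), and CCAAT in 30 (78.9%). Over all 32851 mouse promoters of the same length the shares were 16.0% and 33.8%, and over the promoters of genes tested 10.9% and 35.9%. Genes with the CHR letters had a median log2 fold change of 4.22 (14 genes, 2.49 to 4.83) and those without 3.78 (22 genes, 1.61 to 4.97), ranges that overlap along most of their length. *Cdc20* itself rose from 3.49 and 2.96 to 59.7, 43.1, and 59.9 RPKM (log2 fold change 3.96 ± 0.16, adjusted p = 3.05e-10), and an antisense neighbour, *Elovl1*, overlaps its exons.

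The DNA replication genes rose as a group as well, by less. Of 47, 44 were called higher, 39 of them at least 2-fold, and 2 lower (1 without replicate 2 of actB DMSO or without the averaged nB library), with a median of 2.25. *Mcm10*, a factor that acts with the replicative helicase, rose from 0.5598 and 0.631 to 19.2, 15.8, and 18.1 RPKM (log2 fold change 4.41 ± 0.12, adjusted p = 7.99e-12). *Cdc45*, a subunit of that helicase, rose from 3.402 and 2.67 to 61.1, 48.9, and 56.2 RPKM (log2 fold change 4.09 ± 0.11, adjusted p = 8.98e-12). Ribonucleotide reductase M2, *Rrm2*, which makes the deoxynucleotides, rose from 5.46 and 8.13 to 155, 121, and 165 RPKM (log2 fold change 4.402 ± 0.19, adjusted p = 4.36e-10). The nB levels of these 3 genes differed widely from each other, but every actB DMSO library was far above them. Members that nB already expressed rose by smaller factors. The sliding clamp *Pcna* rose from 115 and 117 to 331, 265, and 329 RPKM (log2 fold change 1.402 ± 0.11, adjusted p = 1.73e-07) and the helicase subunit *Mcm2* from 20.9 and 19.9 to 76.5, 59.7, and 77.2 RPKM (log2 fold change 1.78 ± 0.15, adjusted p = 2.81e-07). *Rfc1*, the large subunit of the clamp loader, fell by a small amount, from 28.3 and 28.8 to 22.8, 20.6, and 22.2 RPKM (log2 fold change -0.38 ± 0.08, adjusted p = 0.000513). As for mitosis, replicate 2 was the lowest actB DMSO library for 44 of the 47 members.

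E2F factors drive many replication genes from a site close to their start. The promoter of *Mcm5*, another helicase subunit, which rose from 19.8 and 17.5 to 102, 83.6, and 105 RPKM (log2 fold change 2.36 ± 0.14, adjusted p = 9.23e-09), holds 2 overlapping matches on opposite strands. They are in capitals in the RefSeq stretch chr8:75109349-75109408 (GRCm38.p6, plus strand), which is shown as the clearest match in the list.
Mcm5: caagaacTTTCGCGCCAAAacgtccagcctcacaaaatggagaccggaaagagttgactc

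The letters TTTCCCGC, TTTGGCGC, or TTTCGCGC on either strand were in 10 of 46 promoters of replication genes (21.7%, for 38 of 47 genes), in 1.53% of all promoters, and in 3.06% of those of genes tested. The 10 genes with a match had a median log2 fold change of 2.25 and the 28 without one 2.17.

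The brakes on the cell cycle mostly went down. Among 24 tested CDK inhibitors and quiescence factors, 18 were called lower (12 at least 2-fold) and 5 higher (4 at least 2-fold), with a median of -0.89. *Klf2*, which keeps lymphocytes quiescent and in circulation, fell from 273 and 275 to 35.8, 27.8, and 35.9 RPKM (log2 fold change -3.05 ± 0.20, adjusted p = 2.3e-08). *Btg1*, an antiproliferative factor, fell from 279 and 259 to 38.4, 59.5, and 40.9 RPKM (log2 fold change -2.56 ± 0.18, adjusted p = 5.79e-08). *Klf4* fell from 41.7 and 38.6 to 0.194, 0.272, and 0.244 RPKM (log2 fold change -6.38 ± 0.13, adjusted p = 1.4e-12). All were at high or moderate levels in both nB libraries and lower in every actB DMSO library, with *Klf4* close to the floor. *Foxo1*, which is switched off by growth signals, fell from 84.3 and 75.5 to 23.6, 27.7, and 26.1 RPKM (log2 fold change -1.62 ± 0.08, adjusted p = 9.98e-10). The inhibitor p27, *Cdkn1b*, was slightly lower, from 50.8 and 53.6 to 42.8, 45.4, and 38.5 RPKM (log2 fold change -0.31 ± 0.11, adjusted p = 0.0222), a call that was lost without either nB library (adjusted p of 0.0546 and 0.122) or without replicate 3 of actB DMSO (0.0802). Opposite to the list, *Cdkn2a*, which encodes p16 and p19ARF, rose from 0.0766 and 0.192 to 20.3, 24.6, and 18.5 RPKM (log2 fold change 5.804 ± 0.16, adjusted p = 1.17e-11), and *Cdkn1a*, which encodes p21, rose from 3.05 and 1.91 to 12.4, 16.8, and 11.2 RPKM (log2 fold change 2.34 ± 0.21, adjusted p = 4.34e-07). In nB, *Cdkn2a* had at most 0.192 RPKM, so that its fold change depends on the added 0.25.

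The immediate early genes formed the other extreme. *Fosb* and *Fos*, AP-1 subunits that are induced within minutes of a signal, had the largest falls of all genes tested on the log2(RPKM + 0.25) scale, which understates the change of genes that end near 0. *Fos* fell from 309 and 308 to 0.505, 0.674, and 0.512 RPKM (log2 fold change -8.57 ± 0.16, adjusted p = 7.33e-13). *Fosb* fell from 149 and 138 to 0.0611, 0.0802, and 0.0797 RPKM (log2 fold change -8.795 ± 0.11, adjusted p = 7.64e-14). *Nr4a1*, an orphan receptor that reports antigen receptor signalling, fell from 259.6 and 187 to 3.498, 5.91, and 3.36 RPKM (log2 fold change -5.66 ± 0.22, adjusted p = 1.63e-10). These were among the well expressed genes of nB, in which both libraries were alike for *Fos* and *Fosb*, and were at or below 5.91 RPKM in all actB DMSO libraries. Their nB levels are those of cells collected from a magnetic column, and an effect of this handling was not tested. *Egr1* fell from 108 and 95.5 to 3.71, 6.75, and 6.35 RPKM (log2 fold change -4.16 ± 0.37, adjusted p = 4.5e-07), and *Jun* fell from 138 and 140.1 to 23.7, 30.8, and 23.7 RPKM (log2 fold change -2.42 ± 0.10, adjusted p = 4.59e-10). *Myc*, a transcription factor that drives cell cycle entry, was lower at 3 days of culture than in nB, from 82.9 and 61.2 to 35.1, 32.7, and 33.5 RPKM (log2 fold change -1.07 ± 0.12, adjusted p = 2.59e-06). Of the NF-kB subunits, *Rel* fell from 61.4 and 67.3 to 30.5, 33.4, and 29.2 RPKM (log2 fold change -1.05 ± 0.09, adjusted p = 3.45e-07) and *Nfkb1* was at 84.4 and 80.5 RPKM in nB and 88.4, 92.8, and 91.7 RPKM in actB DMSO (adjusted p = 0.0592). *Irf4* was at 127 and 112 RPKM in nB and 112, 107, and 109 RPKM in actB DMSO, values that overlap (adjusted p = 0.122, and 0.0311 without nB replicate 3). In contrast, *Batf*, an AP-1 partner needed for class switching, rose from 13.4 and 13.4 to 109.9, 86.1, and 99.3 RPKM (log2 fold change 2.85 ± 0.15, adjusted p = 3.44e-09), and the cell cycle factors *E2f1* and *E2f8* rose with log2 fold changes of 2.31 and 3.87. Over the whole list of 37 early signalling and growth factors, 13 were called higher and 19 lower, with a median of -0.32. The shares were 35.1% and 51.4%, against 40.9% and 36.3% of all genes tested.

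**Figure D2:**
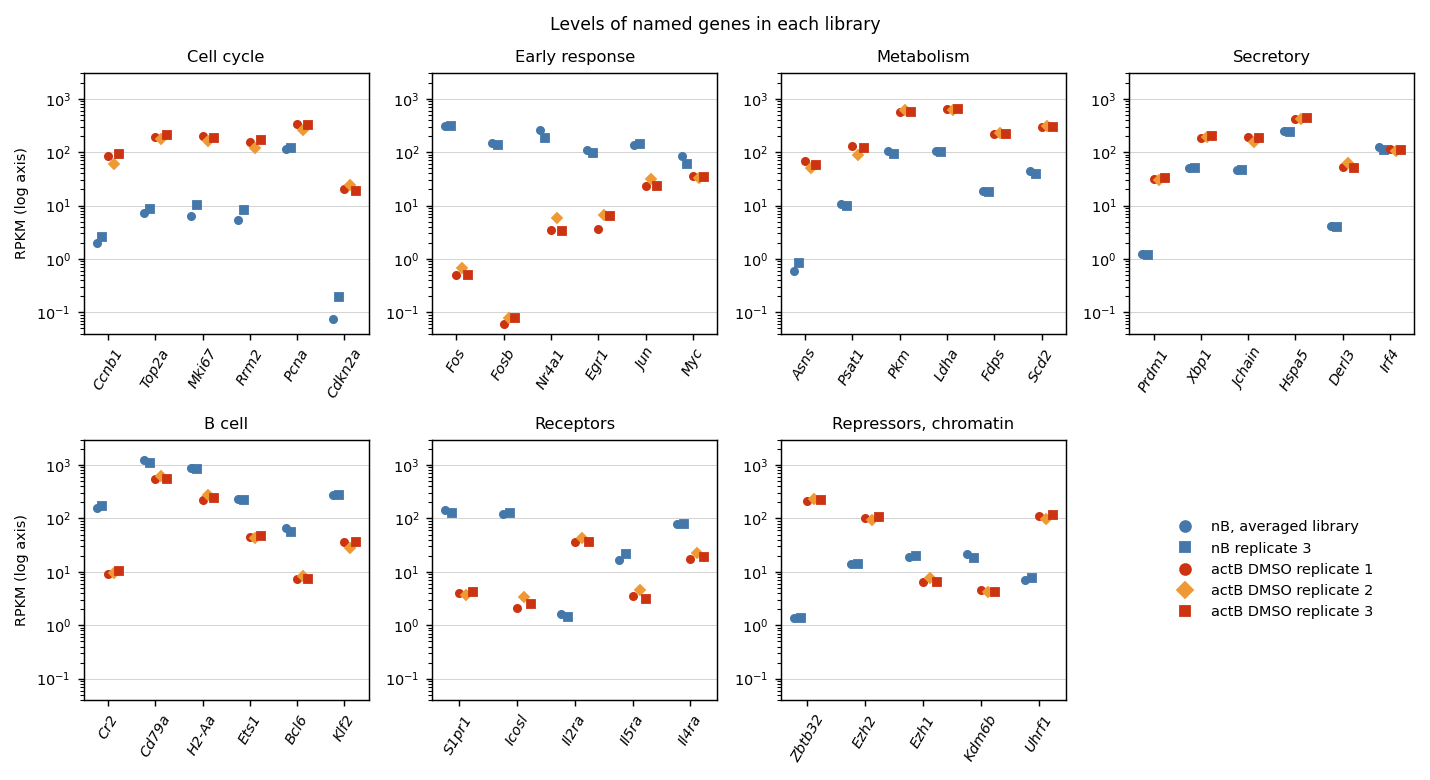
RPKM on a log axis of 40 genes in each of the 5 libraries, with nB in blue and actB DMSO in red, and orange diamonds for actB DMSO replicate 2. The nB and actB DMSO points separate for all genes shown except *Irf4*, and *Fos*, *Fosb*, and *Nr4a1* lie at 138 RPKM or more in nB and at 5.91 RPKM or less in actB DMSO.

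Metabolic genes rose in most pathways. Of 26 genes of glycolysis and the pentose phosphate pathway, 22 were called higher, 18 at least 2-fold, and 1 lower (2 without replicate 2 of actB DMSO, or with a replicate block and the averaged nB library under number 1), with a median of 1.92. Their summed reads went from 2934 and 2750 RPM in nB to 10915, 11506, and 10754 RPM in actB DMSO. Lactate dehydrogenase A, *Ldha*, rose from 107 and 102 to 642, 627, and 646 RPKM (log2 fold change 2.61 ± 0.11, adjusted p = 5.28e-10). Pyruvate kinase, *Pkm*, which makes the last step of glycolysis, rose from 105 and 94.01 to 561, 608, and 553 RPKM (log2 fold change 2.52 ± 0.12, adjusted p = 8.13e-10). Hexokinase 2, *Hk2*, which makes the first, rose from 3.497 and 3.51 to 24.98, 26.2, and 23.5 RPKM (log2 fold change 2.74 ± 0.09, adjusted p = 4.04e-11). The actB DMSO libraries were close to each other in all 3 genes, and far above nB. The lactate exporter *Slc16a3* rose the most, from 0.758 and 0.813 to 47.6, 57.3, and 44.5 RPKM (log2 fold change 5.59 ± 0.39, adjusted p = 4.39e-08), but it overlaps *Csnk1d* on the opposite strand. Among glucose transporters, *Slc2a1* rose from 22.2 and 18.2 to 37.4, 40.5, and 37.8 RPKM (log2 fold change 0.93 ± 0.16, adjusted p = 0.000171) and *Slc2a3* was at 10.3 and 11.8 RPKM in nB and 6.26, 11.4, and 8.09 RPKM in actB DMSO, which overlap (adjusted p = 0.193, and 0.0428 without replicate 2 of actB DMSO). In the pentose phosphate branch *G6pdx*, its first enzyme, rose by less than *Pgd* and *Tkt*, with log2 fold changes of 0.46, 1.17, and 1.05.

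Oxidative phosphorylation rose broadly and by smaller steps. Of 49 genes, 44 were called higher and none lower, but only 11 were at least 2-fold higher, with a median of 0.69. Cytochrome c, *Cycs*, rose most, from 22.6 and 22.7 to 73.2, 52.98, and 68.99 RPKM (log2 fold change 1.497 ± 0.12, adjusted p = 2.21e-07). The ATP synthase subunit *Atp5b* rose from 269.8 and 263 to 534, 478, and 562 RPKM (log2 fold change 0.97 ± 0.11, adjusted p = 2.98e-06), and succinate dehydrogenase subunit *Sdha* was at 92.2 and 91.7 RPKM in nB and 100.5, 93.2, and 106 RPKM in actB DMSO (adjusted p = 0.205). No member of this list was called lower by limma at an adjusted p under 0.05.

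Enzymes of nucleotide and one-carbon synthesis were called higher in 27 of 30, 22 at least 2-fold, and lower in 2, with a median of 1.35. Serine synthesis feeds this pathway. Its enzyme *Psat1* rose from 10.6 and 9.95 to 129, 87.8, and 119 RPKM (log2 fold change 3.39 ± 0.13, adjusted p = 1.4e-10), and *Phgdh*, which makes the first step, rose from 41.5 and 39.1 to 152, 107, and 149 RPKM (log2 fold change 1.73 ± 0.13, adjusted p = 1.01e-07). The mitochondrial folate enzyme *Mthfd2* rose from 9.33 and 10.04 to 83.7, 57.1, and 77.8 RPKM (log2 fold change 2.86 ± 0.14, adjusted p = 1.7e-09). Replicate 2 was the lowest of the actB DMSO libraries in all 3, and still above both nB libraries. CTP synthase showed opposite changes of its 2 genes, since *Ctps* rose from 9.27 and 9.3 to 37.1, 31.9, and 39.9 RPKM (log2 fold change 1.93 ± 0.13, adjusted p = 2.85e-08) and *Ctps2* fell from 17.1 and 18.2 to 8.14, 9.56, and 8.79 RPKM (log2 fold change -0.98 ± 0.08, adjusted p = 2.62e-07).

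Asparagine synthetase, *Asns*, had one of the largest rises of all genes tested. It rose from 0.608 and 0.839 to 69.2, 50.4, and 57.7 RPKM (log2 fold change 5.93 ± 0.18, adjusted p = 2.06e-11), from at most 0.839 RPKM in nB. It belongs to a list of 31 aminoacyl-tRNA synthetases and amino acid genes, of which 27 were called higher, 18 at least 2-fold, and none lower, with a median of 1.12. The large neutral amino acid transporter *Slc7a5* rose from 10.2 and 9.29 to 83.2, 57.4, and 78.8 RPKM (log2 fold change 2.86 ± 0.14, adjusted p = 1.48e-09), and leucyl-tRNA synthetase *Lars* rose from 21.7 and 24.8 to 59.9, 48.6, and 58.5 RPKM (log2 fold change 1.25 ± 0.09, adjusted p = 4.2e-08). The valine enzyme *Vars* was at 126 and 119.8 RPKM in nB and 118, 123, and 128 RPKM in actB DMSO (adjusted p = 0.998). The transporter *Slc7a3*, a carrier of cationic amino acids named as one of the 12 largest rises, rose from 0.2197 and 0.111 to 19.3, 12.99, and 18.6 RPKM (log2 fold change 5.36 ± 0.21, adjusted p = 1.86e-10).

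*Asns* is a known target of ATF4 in the amino acid response. The transcript of this factor, *Atf4*, was at 156 and 155 RPKM in nB and 209, 153, and 187 RPKM in actB DMSO in the libraries, which overlap (adjusted p = 0.0765, and 0.00185 without replicate 2 of actB DMSO, which was at the nB level). The stretch before the *Asns* start, RefSeq chr6:7693210-7693269 of GRCm38.p6 on the minus strand, holds the amino acid response element TGATGNAA, in capitals, close to the start.
Asns: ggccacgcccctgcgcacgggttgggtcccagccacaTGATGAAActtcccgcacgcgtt
These letters, on either strand, were found in the 250 bases before the start in 3.45% of all promoters and 2.06% of those of genes tested.

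Genes for ribosome assembly rose, and those for the ribosomal proteins changed by less than 2-fold. Of 44 genes for ribosome assembly and RNA polymerase I, 41 were called higher, 15 at least 2-fold, and 1 lower, with a median of 0.80. Nucleophosmin, *Npm1*, rose from 351 and 348 to 1002, 851, and 965 RPKM (log2 fold change 1.42 ± 0.10, adjusted p = 6.87e-08), and *Nop58*, a small nucleolar ribonucleoprotein, rose from 49.5 and 48.7 to 146, 107, and 137 RPKM (log2 fold change 1.39 ± 0.12, adjusted p = 3.19e-07). The polymerase I factor *Ubtf* was the member called lower, from 40.1 and 36.5 to 29.9, 24.3, and 29.4 RPKM (log2 fold change -0.46 ± 0.10, adjusted p = 0.00119). Among 68 cytosolic ribosomal protein genes, no member changed 2-fold, with a median of 0.10. Of these, 28 were called higher (41.2%, against 40.9% of all genes tested) and 9 lower (13.2%, against 36.3%). The split of these calls depended on scaling, as 22 were higher and 19 lower with libraries scaled to a median ratio of 0, and 21 and 21 by edgeR with RLE factors. With a replicate block and the averaged nB library under number 1, 14 were lower. *Rps2* rose from 509 and 489.9 to 799, 860.0, and 858 RPKM (log2 fold change 0.75 ± 0.07, adjusted p = 7.57e-07), and *Rps27* fell from 673 and 727 to 447, 436, and 415 RPKM (log2 fold change -0.69 ± 0.06, adjusted p = 5.45e-07). Ribosomal protein genes have many processed copies, which the counting could split from them.

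Sterol and lipid synthesis was one of the most uniform groups. Of 32 genes, 30 were called higher, 26 at least 2-fold, and none lower, with a median of 2.04. Farnesyl diphosphate synthase, *Fdps*, rose from 18.8 and 17.9 to 215, 227, and 221 RPKM (log2 fold change 3.57 ± 0.08, adjusted p = 1.96e-12). HMG-CoA synthase, *Hmgcs1*, rose from 8.99 and 8.49 to 55.98, 57.6, and 57.9 RPKM (log2 fold change 2.68 ± 0.10, adjusted p = 1.69e-10). The 3 actB DMSO libraries were within a few percent of each other for both genes. The transcription factor of the pathway, *Srebf2*, rose by less, from 63.04 and 59.8 to 83.8, 89.8, and 85.7 RPKM (log2 fold change 0.49 ± 0.06, adjusted p = 4.08e-06). The desaturases differed, as *Scd2* rose from 43.6 and 38.8 to 293, 308, and 297 RPKM (log2 fold change 2.85 ± 0.12, adjusted p = 3.37e-10) and *Scd1* was at 366 and 321 RPKM in nB and 334, 330.3, and 339 RPKM in actB DMSO (adjusted p = 0.762). *Fads2*, a desaturase of polyunsaturated fatty acids, was outside the list and among the 12 largest rises, from 0.251 and 0.275 to 23.2, 23, and 20.8 RPKM (log2 fold change 5.46 ± 0.10, adjusted p = 6.72e-13).

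SREBP factors act on sterol regulatory elements. The stretch RefSeq chr13:119690191-119690250 (GRCm38.p6, plus strand), from 160 to 101 bases before the start of *Hmgcs1*, holds the letters TCACNCCAC, in capitals.
Hmgcs1: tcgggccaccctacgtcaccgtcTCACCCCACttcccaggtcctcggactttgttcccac
On either strand, these were found in 1.05% of all promoters and 0.962% of those of genes tested. Only 22 of the 32 genes of the list have a promoter entry, so no share is given for the list. Besides that of *Hmgcs1*, no promoter of these 22 genes held the letters.

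Genes of the secretory apparatus were higher in actB DMSO, although the cells were sorted as CD138-. Of 42 genes of the unfolded protein response and ER folding, 37 were called higher, 26 at least 2-fold, and 3 lower, with a median of 1.13. Their summed reads went from 7985 and 7695 RPM to 16115, 15443, and 16043 RPM. *Derl3*, which moves misfolded proteins out of the ER, rose from 4.22 and 3.98 to 52.3, 62.5, and 50.7 RPKM (log2 fold change 3.67 ± 0.13, adjusted p = 6.21e-11). *Hsp90b1* (GRP94), a chaperone of the ER lumen, rose from 258 and 253 to 711, 672, and 728 RPKM (log2 fold change 1.46 ± 0.06, adjusted p = 3.57e-10), and *Hspa5* (BiP), the main chaperone, rose from 249 and 236 to 416, 412, and 444 RPKM (log2 fold change 0.81 ± 0.06, adjusted p = 1.1e-07). The actB DMSO libraries were alike and the groups did not overlap for any of them. In Pb with DMSO the mean of 3 libraries was 255 RPKM for *Derl3*, 2225 for *Hsp90b1*, and 979 for *Hspa5*. The transcription factor *Xbp1* rose from 51.2 and 50.3 to 183, 191, and 196 RPKM (log2 fold change 1.901 ± 0.07, adjusted p = 1.01e-10), with 955 RPKM in Pb with DMSO. The members called lower include *Dnajb9*, an ER cochaperone, from 82.4 and 71.2 to 38.6, 36.3, and 33.5 RPKM (log2 fold change -1.08 ± 0.09, adjusted p = 2.09e-07), and *Ddit3* (CHOP), which promotes death under ER stress, from 42.9 and 37.4 to 23.3, 19.04, and 18.6 RPKM (log2 fold change -0.98 ± 0.14, adjusted p = 4.71e-05).

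The promoters of ER chaperone genes carry a composite ER stress element, a CCAAT box followed by CCACG after a gap of 9 bases. It is printed in capitals, with single CCAAT boxes, for *Hspa5* (RefSeq chr2:34771980-34772089, plus strand), *Calr*, which encodes calreticulin (chr8:84847042-84847101, minus strand), and *Creld2* (chr15:88819496-88819575, plus strand), all of GRCm38.p6. In *Calr* and *Creld2* the element lies on the other strand, so that its letters begin with CGTGG and end with ATTGG.
Hspa5: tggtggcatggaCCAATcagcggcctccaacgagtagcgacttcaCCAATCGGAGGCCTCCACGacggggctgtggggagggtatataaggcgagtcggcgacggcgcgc
Calr: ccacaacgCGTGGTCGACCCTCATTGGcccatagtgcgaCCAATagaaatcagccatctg
Creld2: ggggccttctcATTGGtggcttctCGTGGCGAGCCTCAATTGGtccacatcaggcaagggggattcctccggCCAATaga

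The element was in 10 of 35 promoters of the list (28.6%, for 34 of 42 genes), and in 37 of all 32851 promoters (0.113%). It was in 0.141% of those of genes tested. The 10 genes that hold it had a median log2 fold change of 0.95 (0.10 to 3.67) and the 24 without it 1.04 (-1.08 to 2.39). *Calr* rose from 418 and 378 to 636, 571, and 624 RPKM (log2 fold change 0.62 ± 0.07, adjusted p = 2.59e-06) and *Creld2* rose from 27.8 and 26.1 to 109.6, 93.2, and 100.5 RPKM (log2 fold change 1.89 ± 0.07, adjusted p = 2.09e-10).

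Most plasma cell genes were higher in actB DMSO. Of 20, 14 were called higher, 12 at least 2-fold, and 3 lower, 1 of which was *Sdc1* (CD138), on which the cells were sorted, with a median of 1.41. *Xbp1*, *Creld2*, *Derl3*, *Edem1*, and *Atf6* are counted both here and in the list of ER folding genes above. *Prdm1*, whose product BLIMP-1 drives plasma cell formation, rose from 1.25 and 1.18 to 31.3, 29.9, and 32.6 RPKM (log2 fold change 4.43 ± 0.08, adjusted p = 7.87e-13). The joining chain of polymeric antibody, *Jchain*, rose from 46 and 45.9 to 193, 156, and 184 RPKM (log2 fold change 1.94 ± 0.11, adjusted p = 4.5e-09). *Mzb1*, an ER protein of antibody-secreting cells, rose from 144 and 150.3 to 475, 546, and 488 RPKM (log2 fold change 1.77 ± 0.09, adjusted p = 1.54e-09). The 3 actB DMSO libraries were above both nB libraries in each, and the means of Pb with DMSO were higher still, at 121, 1668, and 1625 RPKM. The elongation factor *Ell2*, which favours the secreted form of antibody, rose from 10.8 and 10.3 to 33.8, 27.5, and 28.7 RPKM (log2 fold change 1.48 ± 0.09, adjusted p = 7.94e-09). The receptor BCMA, *Tnfrsf17*, was at 0.214 and 0.161 RPKM in nB and 0.156, 0.102, and 0.153 RPKM in actB DMSO (adjusted p = 0.258), where Pb with DMSO had 17.8 RPKM. Because of the sort, the levels of *Sdc1*, 5.22 and 5.12 RPKM in nB and 0.769, 0.694, and 0.532 RPKM in actB DMSO, are no finding.

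**Figure D3:**
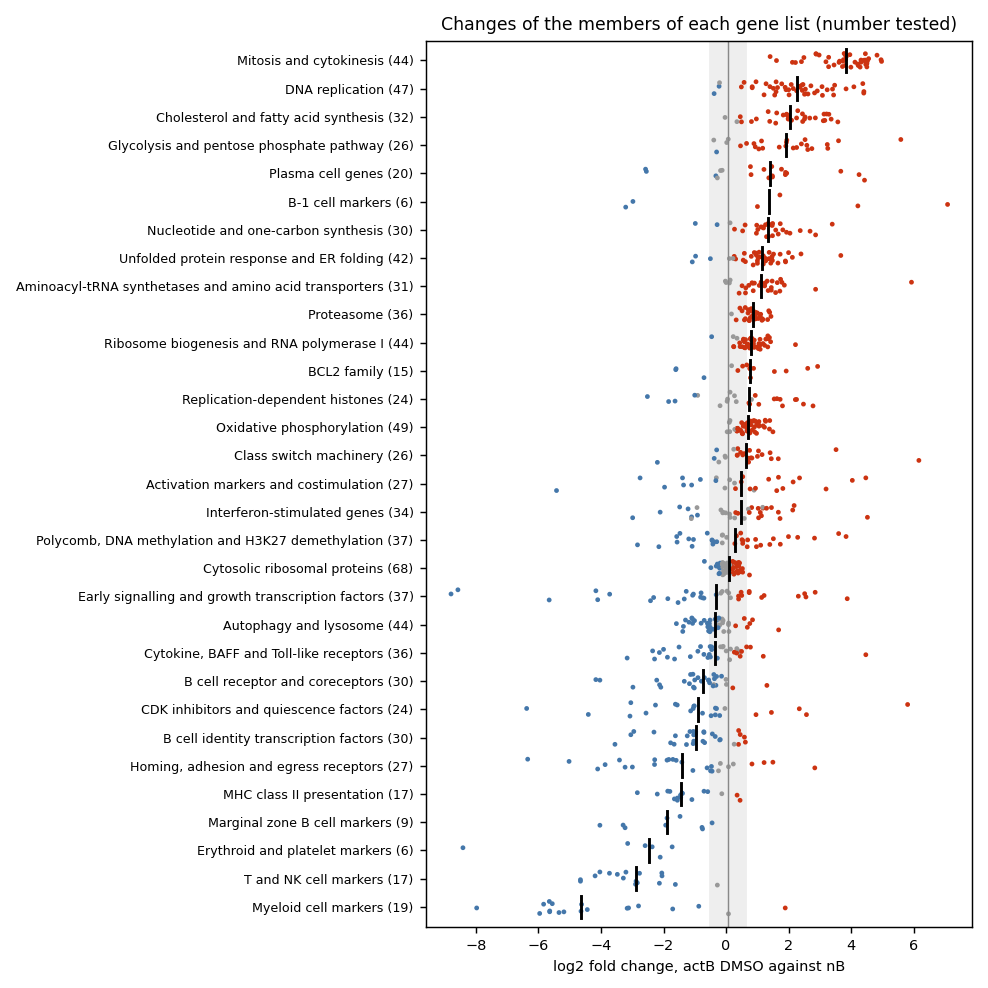
Log2 fold changes of the tested members of each list with at least 6 tested, with the number tested in brackets; red points were called higher, blue called lower, and grey not called, black bars are list medians, and the grey band spans the quartiles of all genes tested (-0.52 to 0.64). The lists run from a median of -4.64 for myeloid markers to 3.83 for mitosis and cytokinesis.

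Most of the transcription factors that define B cells went down. Of 30 B cell identity transcription factors, 24 were called lower, 14 at least 2-fold, and 5 higher, none of which rose 2-fold, with a median of -0.97. *Ets1*, which restrains plasma cell formation, fell from 227 and 217 to 44.5, 43.5, and 45.9 RPKM (log2 fold change -2.31 ± 0.05, adjusted p = 3.41e-12). *Bcl6*, the factor of germinal centre B cells, fell from 64.9 and 56.6 to 7.201, 8.19, and 7.48 RPKM (log2 fold change -2.95 ± 0.11, adjusted p = 1.36e-10). *Spib* fell from 336 and 306 to 129, 138, and 132 RPKM (log2 fold change -1.27 ± 0.20, adjusted p = 9.78e-05). Both nB libraries lay above all actB DMSO libraries in these genes. *Pax5*, which holds cells in the B lineage, fell from 337 and 306 to 186, 199, and 192 RPKM (log2 fold change -0.74 ± 0.20, adjusted p = 0.00441) and *Ebf1* fell from 47.4 and 40.9 to 20.1, 25.6, and 21.6 RPKM (log2 fold change -0.97 ± 0.15, adjusted p = 8.68e-05). Both remained expressed in actB DMSO, where Pb with DMSO had 29.1 and 5.31 RPKM. *Bach2*, a repressor of *Prdm1*, was lower by a small amount, from 33.6 and 33.8 to 23.7, 30.7, and 25.3 RPKM (log2 fold change -0.35 ± 0.15, adjusted p = 0.0466), and its call was lost without any one library other than replicate 2 of actB DMSO (adjusted p from 0.106 to 0.146). The largest rise of the list was that of *Pou2af1*, a coactivator of antibody genes, which rose from 244 and 229 to 376, 349, and 364 RPKM (log2 fold change 0.62 ± 0.05, adjusted p = 4.07e-07).

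Transcripts of the B cell receptor and its coreceptors were lower in 25 of 30 members, 13 at least 2-fold, and higher in 2 (1 when any one library other than replicate 1 of actB DMSO was left out), with a median of -0.74. *Cr2*, the complement receptor CD21, fell from 158 and 168 to 8.97, 9.72, and 10.6 RPKM (log2 fold change -4.04 ± 0.11, adjusted p = 1.13e-11). The signalling chains *Cd79a* and *Cd79b* fell by similar steps, from 1221 and 1096 to 544, 617, and 555 RPKM (log2 fold change -1.02 ± 0.08, adjusted p = 1.53e-07) for *Cd79a* and from 928 and 908 to 422, 477, and 439 RPKM (log2 fold change -1.04 ± 0.07, adjusted p = 1.88e-08) for *Cd79b*. *Siglecg*, an inhibitory coreceptor, fell from 249 and 259 to 93.8, 107, and 100.3 RPKM (log2 fold change -1.34 ± 0.10, adjusted p = 1.01e-07), and *Cd22*, another, was at 295 and 298 RPKM in nB and 205, 258, and 216 RPKM in actB DMSO (adjusted p = 0.146). All of these remained expressed in actB DMSO. *Fcgr2b*, the inhibitory Fc receptor, rose from 52.6 and 58.9 to 125, 153, and 137 RPKM (log2 fold change 1.304 ± 0.09, adjusted p = 3.98e-08). *Lilrb4a*, an inhibitory receptor that myeloid cells also carry, fell from 9.52 and 11.9 to 0.309, 0.413, and 0.356 RPKM (log2 fold change -4.16 ± 0.20, adjusted p = 1.41e-09).

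Most genes of antigen presentation by MHC class II fell. Of 17 genes, 14 were called lower, 12 at least 2-fold, and 2 higher, with a median of -1.45. Their summed reads went from 16856 and 16182 RPM in nB to 5839, 7052, and 6251 RPM in actB DMSO. The transactivator *Ciita* fell from 66.5 and 67.1 to 22.2, 27.04, and 23.4 RPKM (log2 fold change -1.46 ± 0.16, adjusted p = 3.45e-06). The peptide-binding chains *H2-Aa* and *H2-Ab1*, whose exons overlap each other on opposite strands, fell from 863 and 849 to 217, 279, and 246 RPKM (log2 fold change -1.797 ± 0.11, adjusted p = 1.7e-08) and from 1399 and 1334 to 429, 509, and 459 RPKM (log2 fold change -1.56 ± 0.09, adjusted p = 7.56e-09). The invariant chain *Cd74*, the gene with the highest RPKM in both nB libraries, fell from 3532 and 3344 to 1486, 1759, and 1598 RPKM (log2 fold change -1.09 ± 0.09, adjusted p = 2.15e-07). No actB DMSO library reached the nB level of any of these genes. The largest fall of the list was that of *H2-Oa*, a regulator of peptide loading, which fell from 139.7 and 129 to 15.4, 24.5, and 16.9 RPKM (log2 fold change -2.84 ± 0.30, adjusted p = 1.86e-06). The protease *Ctss*, which trims the invariant chain, fell from 429 and 416 to 153, 179, and 150.4 RPKM (log2 fold change -1.396 ± 0.11, adjusted p = 1.77e-07). *Rfxap*, a subunit of the promoter-binding complex, rose slightly, from 5.82 and 5.68 to 8.402, 7.82, and 7.57 RPKM (log2 fold change 0.45 ± 0.12, adjusted p = 0.00507).

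The promoters of class II genes hold a CCAAT box (the Y box) close to the start. It is shown for *H2-Aa* as the reverse match ATTGG, in capitals, in RefSeq chr17:34287824-34287883 (GRCm38.p6, minus strand), the 60 bases before the start. The CCAAT letters also stand in the promoters of mitotic genes printed above, whose transcripts moved the opposite way.
H2-Aa: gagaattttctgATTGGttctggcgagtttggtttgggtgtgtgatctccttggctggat

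Surface markers of activation moved in both directions. Among 27, 14 were called higher, 9 at least 2-fold, and 8 lower, 6 at least 2-fold, with a median of 0.48. That is 51.9% higher and 29.6% lower, against 40.9% and 36.3% of all genes tested. The alpha chain of the Il2 receptor, *Il2ra*, rose most, from 1.603 and 1.404 to 36.9, 42.9, and 35.98 RPKM (log2 fold change 4.47 ± 0.19, adjusted p = 3.62e-10). The death receptor *Fas* rose from 3.95 and 3.73 to 16.3, 24.4, and 14.2 RPKM (log2 fold change 2.14 ± 0.26, adjusted p = 6.86e-06), and the costimulatory ligand *Cd80* rose from 1.69 and 2.02 to 9.57, 13.1, and 9.103 RPKM (log2 fold change 2.35 ± 0.20, adjusted p = 2.88e-07). The transferrin receptor *Tfrc*, which supplies iron to growing cells, rose from 17.7 and 23.04 to 76.8, 61.7, and 77.8 RPKM (log2 fold change 1.81 ± 0.13, adjusted p = 4.12e-08). The groups did not overlap for any of these 4. *Cd86* was at 18.2 and 22.8 RPKM in nB and 29.8, 59, and 31.1 RPKM in actB DMSO, with replicate 2 the highest, and did not pass (adjusted p = 0.0598, and 0.0466 without replicate 1 of actB DMSO). The ligand of ICOS, *Icosl*, fell from 121 and 126 to 2.099, 3.44, and 2.52 RPKM (log2 fold change -5.42 ± 0.20, adjusted p = 9.58e-11). The early marker *Cd69* fell from 61.7 and 63.5 to 23.5, 23.8, and 25.4 RPKM (log2 fold change -1.36 ± 0.18, adjusted p = 1.74e-05), while *Cd40* was at 74.6 and 77.3 RPKM in nB and 78.8, 88.1, and 80.04 RPKM in actB DMSO (adjusted p = 0.45).

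Among the receptors for the added cytokines and for LPS, the subunits moved differently. Besides *Il2ra*, *Il2rb* was at 5.76 and 6.399 RPKM in nB and 7.44, 10.1, and 7.52 RPKM in actB DMSO (adjusted p = 0.119). The alpha chain of the Il5 receptor, *Il5ra*, fell from 16.6 and 21.8 to 3.46, 4.64, and 3.15 RPKM (log2 fold change -2.29 ± 0.26, adjusted p = 3.68e-06). *Il4ra* fell from 77.9 and 78.3 to 17.3, 22.4, and 18.6 RPKM (log2 fold change -2.001 ± 0.12, adjusted p = 1.4e-08), and *Il21r* rose from 105 and 101 to 130.2, 154, and 139 RPKM (log2 fold change 0.45 ± 0.12, adjusted p = 0.00354). Of the LPS receptor complex, *Tlr4* fell from 7.97 and 10.03 to 5.79, 6.63, and 6.204 RPKM (log2 fold change -0.51 ± 0.12, adjusted p = 0.00167) and its partner *Ly96* (MD-2) was higher by a small amount, from 6.34 and 6.25 to 8.29, 8.74, and 7.11 RPKM (log2 fold change 0.34 ± 0.09, adjusted p = 0.00325), which was not called by edgeR with RLE factors (adjusted p = 0.0564). RP105, encoded by *Cd180*, fell from 134 and 125 to 26.5, 24.7, and 24.3 RPKM (log2 fold change -2.35 ± 0.06, adjusted p = 5.66e-12). The libraries of each group were close to each other for *Cd180*. *Tlr9* fell from 63.5 and 58.6 to 19.1, 26.5, and 19.1 RPKM (log2 fold change -1.505 ± 0.18, adjusted p = 6.73e-06) and *Tlr7* was at 23.8 and 28.2 RPKM in nB and 31.8, 42.9, and 30.1 RPKM in actB DMSO (adjusted p = 0.221). Of the receptors for BAFF, *Tnfrsf13c* (BAFF-R) was at 117 and 109 RPKM in nB and 122, 133, and 118 RPKM in actB DMSO (adjusted p = 0.0997) and *Tnfrsf13b* (TACI) rose from 69.3 and 69.6 to 124, 112, and 123 RPKM (log2 fold change 0.78 ± 0.07, adjusted p = 5.76e-07). The list of 36 receptors and adaptors had 8 called higher and 19 lower, with a median of -0.37. Its shares were 22.2% and 52.8%, against 40.9% and 36.3% of all genes tested.

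Receptors that place B cells in lymphoid organs fell. Of 27 genes for homing, adhesion, and egress, 19 were called lower, 15 at least 2-fold, and 4 higher, with a median of -1.42. The egress receptor *S1pr1* fell from 146 and 127 to 4.07, 3.63, and 4.18 RPKM (log2 fold change -5.02 ± 0.12, adjusted p = 4.22e-12). The homing integrin subunit *Itgb7* fell from 88.4 and 86.5 to 4.49, 4.75, and 5.33 RPKM (log2 fold change -4.11 ± 0.23, adjusted p = 4.57e-09). The chemokine receptor *Ccr7* fell from 223 and 174 to 35.1, 52.5, and 35.03 RPKM (log2 fold change -2.29 ± 0.37, adjusted p = 8.83e-05). For this gene replicate 2 was the highest actB DMSO library, and it stayed below nB. *Cxcr4*, which Pb had at 92.01 RPKM, fell from 342 and 246 to 28.7, 29.8, and 23.2 RPKM (log2 fold change -3.41 ± 0.12, adjusted p = 7.89e-11). The follicle receptor *Cxcr5* fell by less, from 176 and 157 to 108, 132, and 115 RPKM (log2 fold change -0.496 ± 0.14, adjusted p = 0.00621), and *Ccr6* was at 60.8 and 66.6 RPKM in nB and 43.8, 65.5, and 54.1 RPKM in actB DMSO, which overlap (adjusted p = 0.155, and 0.0203 without replicate 2 of actB DMSO). Without the averaged nB library *Cxcr5* was not called (adjusted p = 0.0663). *Cxcr3*, a receptor for chemokines that interferon induces, rose from 1.86 and 2.77 to 10.7, 30.97, and 16.97 RPKM (log2 fold change 2.84 ± 0.52, adjusted p = 0.000288), with replicate 2 well above the other libraries.

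Class switching genes mostly rose. Of 26 genes of the switching machinery, 19 were called higher, 8 at least 2-fold, and 3 lower, with a median of 0.64. *Ung*, which removes uracil from DNA, rose from 5.14 and 4.205 to 17.2, 13.9, and 15.1 RPKM (log2 fold change 1.67 ± 0.13, adjusted p = 1.71e-07). The end-joining factor 53BP1, *Trp53bp1*, was slightly lower, from 10.6 and 11.7 to 8.91, 8.88, and 9.18 RPKM (log2 fold change -0.302 ± 0.06, adjusted p = 0.000312), and *Hmces*, which shields abasic sites, fell from 20.8 and 18.6 to 4.21, 3.95, and 4.13 RPKM (log2 fold change -2.198 ± 0.12, adjusted p = 3.02e-09). *Zbtb32*, a transcriptional repressor, had the largest rise of all genes tested on the log2(RPKM + 0.25) scale, from 1.396 and 1.38 to 213, 232, and 220.5 RPKM (log2 fold change 7.08 ± 0.19, adjusted p = 8.54e-12), on chromosome 7 from 31374700 to 31383928 of mm9. In Pb with DMSO it had 27.5 RPKM.

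The BCL2 family changed in composition. Of 15 genes tested, 11 were called higher, 4 at least 2-fold, and 3 lower, with a median of 0.76. The survival factor BCL-XL, *Bcl2l1*, rose from 1.896 and 1.74 to 15.3, 16.2, and 14.8 RPKM (log2 fold change 2.93 ± 0.07, adjusted p = 5.15e-12), whereas *Mcl1* fell from 271 and 260.5 to 157, 172, and 159 RPKM (log2 fold change -0.71 ± 0.06, adjusted p = 3.21e-07). *Bcl2* was slightly higher, from 18.6 and 17.9 to 22.2, 26.6, and 22.6 RPKM (log2 fold change 0.38 ± 0.14, adjusted p = 0.0265), which was not called without replicate 2 of actB DMSO (adjusted p = 0.0855), the averaged nB library (0.0768), or nB replicate 3 (0.118), nor with libraries scaled to a median ratio of 0 (0.075). Of the death-promoting BH3-only members, BIM (*Bcl2l11*) rose from 7.09 and 6.52 to 24.1, 31.7, and 24.2 RPKM (log2 fold change 1.92 ± 0.13, adjusted p = 4.1e-08) and PUMA (*Bbc3*) rose from 2.33 and 1.57 to 13.1, 13.95, and 11.9 RPKM (log2 fold change 2.61 ± 0.18, adjusted p = 3.78e-08), but *Bmf* fell from 23.4 and 23.5 to 7.23, 9.22, and 6.52 RPKM (log2 fold change -1.599 ± 0.19, adjusted p = 5.37e-06) and NOXA (*Pmaip1*) fell from 64.1 and 61.8 to 19.5, 20.4, and 21.5 RPKM (log2 fold change -1.61 ± 0.08, adjusted p = 2.07e-09). For each of these the nB and actB DMSO libraries did not overlap.

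The Polycomb enzyme that the drug of the other cultures inhibits was higher in actB DMSO. *Ezh2*, the methyltransferase for H3K27, rose from 13.8 and 14.3 to 103, 94.3, and 106 RPKM (log2 fold change 2.83 ± 0.09, adjusted p = 2.96e-11), with *Gm17629* on the other strand. Its paralog *Ezh1* fell from 18.98 and 19.9 to 6.41, 7.78, and 6.36 RPKM (log2 fold change -1.48 ± 0.11, adjusted p = 5.87e-08). The core partners *Suz12* and *Eed* rose from 44.5 and 42.5 to 85.5, 78.2, and 88.1 RPKM (log2 fold change 0.94 ± 0.07, adjusted p = 5.91e-08) and from 39.4 and 39.1 to 56.4, 51.4, and 55.3 RPKM (log2 fold change 0.47 ± 0.07, adjusted p = 3.42e-05). Accessory subunits moved in opposite directions: *Phf19* rose from 3.37 and 2.57 to 14, 9.63, and 14.4 RPKM (log2 fold change 1.99 ± 0.18, adjusted p = 5.82e-07), while *Phf1* fell from 36.4 and 32.9 to 4.4, 4.79, and 4.74 RPKM (log2 fold change -2.83 ± 0.11, adjusted p = 2.24e-10) and *Jarid2* fell from 29.9 and 31.6 to 10.3, 10.6, and 9.75 RPKM (log2 fold change -1.57 ± 0.07, adjusted p = 3.76e-10). Of the H3K27 demethylases, *Kdm6b* fell from 22.02 and 18.1 to 4.58, 4.25, and 4.11 RPKM (log2 fold change -2.15 ± 0.09, adjusted p = 5.4e-10) and *Kdm6a* was at 24.6 and 25.1 RPKM in nB and 23.5, 22.2, and 22.8 RPKM in actB DMSO (adjusted p = 0.0838). For DNA methylation, the maintenance enzyme *Dnmt1* and its guide *Uhrf1* rose from 24.1 and 25.5 to 75.8, 64.1, and 74.1 RPKM (log2 fold change 1.51 ± 0.10, adjusted p = 1.72e-08) and from 6.99 and 7.704 to 113, 96.4, and 116 RPKM (log2 fold change 3.84 ± 0.12, adjusted p = 2.06e-11). The de novo enzyme *Dnmt3a* was at 8.4 and 8.85 RPKM in nB and 6.93, 10.02, and 7.07 RPKM in actB DMSO, which overlap (adjusted p = 0.493). Over the list of 37, 19 were called higher and 14 lower (51.4% and 37.8%, against 40.9% and 36.3% of all genes tested). Its median was 0.28. *Dnmt1* and *Uhrf1* are also in the list of DNA replication genes.

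Interferon-stimulated genes moved in both directions and differed between the actB DMSO libraries. Of 34, 16 were called higher, 12 at least 2-fold, and 6 lower, 5 at least 2-fold, with a median of 0.48. These calls make 47.1% higher and 17.6% lower, against 40.9% and 36.3% of all genes tested. With a replicate block, 13 were called lower where the averaged nB library stood under number 1 and 6 where it stood under number 2. All 34 were highest in replicate 2 among the actB DMSO libraries, where 41.4% of all genes tested were highest in it. Their summed reads were 2500 and 2671 RPM in nB and 4019, 6369, and 4239 RPM in actB DMSO. Without replicate 2, 14 were called higher (8 at least 2-fold) and 6 lower (6 at least 2-fold), with a median of 0.16. Without nB replicate 3, 2 were called lower. *Gbp2*, an interferon-induced GTPase, rose from 15.1 and 13.7 to 274, 486, and 283 RPKM (log2 fold change 4.52 ± 0.38, adjusted p = 2.35e-07). *Isg15*, a ubiquitin-like modifier, rose from 7.32 and 9.82 to 36.3, 48.4, and 34.2 RPKM (log2 fold change 2.18 ± 0.33, adjusted p = 6.32e-05). *Ifit3* fell from 10.01 and 12.5 to 0.909, 2.53, and 0.681 RPKM (log2 fold change -2.99 ± 0.50, adjusted p = 0.000139), and *Irf7*, a factor of the interferon response, fell from 19.9 and 25.3 to 6.85, 16.4, and 7.63 RPKM (log2 fold change -1.22 ± 0.38, adjusted p = 0.0106), which was not called without nB replicate 3 (adjusted p = 0.0874). *Mx1*, an antiviral GTPase, was at 6.02 and 8.33 RPKM in nB and 3.95, 14.8, and 4.74 RPKM in actB DMSO, with replicate 2 above both nB libraries and the others below them (adjusted p = 0.876). *Iigp1*, another GTPase of this response and one of the 12 largest rises, had 76.7 RPKM in replicate 2 against 13.2 and 12.4 RPKM in the others, and 0.359 and 0.422 RPKM in nB (log2 fold change 5.201 ± 0.90, adjusted p = 0.000175). Without replicate 2 the log2 fold change of *Iigp1* was 4.35 (adjusted p = 0.000375), and with the block under number 1 it was 4.52.

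**Figure D4:**
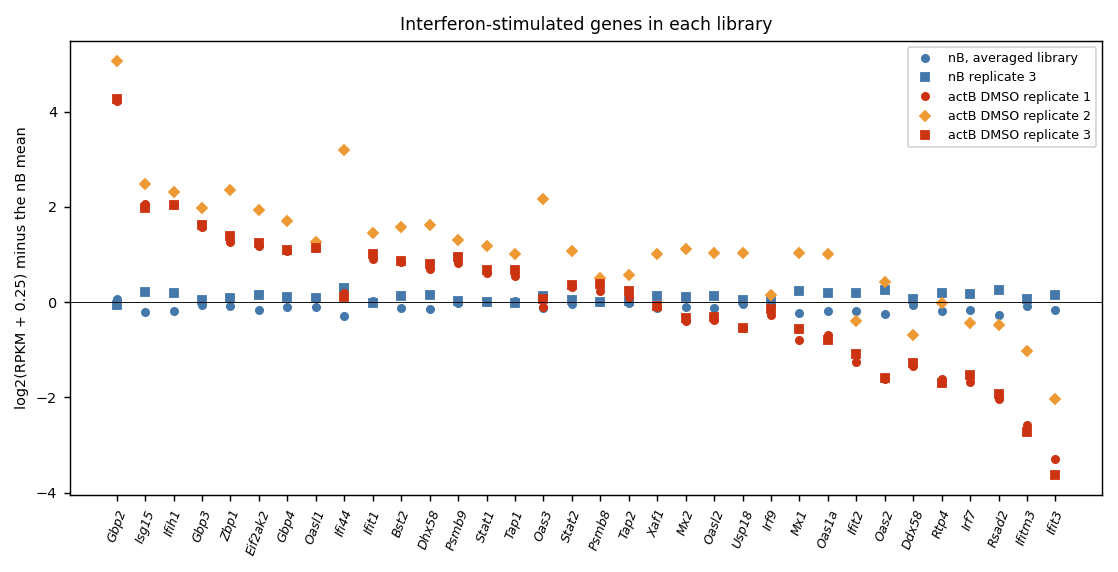
The 34 interferon-stimulated genes tested, ordered by fold change, with log2(RPKM + 0.25) of each library minus the mean of the nB libraries on the vertical axis. Orange diamonds, actB DMSO replicate 2, lie above the red points of replicates 1 and 3 for all 34 genes.

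The core of the interferon-stimulated response element, GAAA repeated after a gap of 2 bases, stands in reverse before the start of *Gbp2*, in capitals in RefSeq chr3:142620593-142620662 (GRCm38.p6, plus strand).
Gbp2: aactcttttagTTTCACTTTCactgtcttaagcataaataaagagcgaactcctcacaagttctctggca
It was found, on either strand, in 2.98% of all promoters and 2.88% of those of genes tested, and with an entry for 24 of 34 genes no share is given for the list.

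Protein breakdown moved in opposite directions in its 2 systems. Of 36 proteasome genes, 35 were called higher, 11 at least 2-fold, and none lower, with a median of 0.86. *Psmd14*, the deubiquitinase of the lid, rose from 50.3 and 51.4 to 154, 119.6, and 143 RPKM (log2 fold change 1.43 ± 0.10, adjusted p = 2.97e-08), and *Psma5* of the core ring rose from 45.6 and 47.01 to 128, 108, and 123 RPKM (log2 fold change 1.36 ± 0.11, adjusted p = 1.17e-07). Of 44 genes of autophagy and the lysosome, 28 were called lower, 9 at least 2-fold, and 6 higher, 1 at least 2-fold, with a median of -0.35. The cathepsin *Ctsh* fell from 228 and 249 to 112, 113, and 109 RPKM (log2 fold change -1.096 ± 0.09, adjusted p = 3.3e-07). The transcription factor of lysosome genes, *Tfeb*, fell from 39.4 and 34.9 to 17.7, 19.01, and 18.2 RPKM (log2 fold change -1.01 ± 0.08, adjusted p = 1.36e-07). Replication-dependent histones, whose mRNA lacks a poly(A) tail and is poorly captured by the poly(A) selection used, had 24 of 50 matched genes tested, 12 of them called higher and 4 lower (6 and 2 by edgeR). That is 50% higher and 16.7% lower, against 40.9% and 36.3% of all genes tested. The histone genes held 83.2 and 90.1 RPM in nB and 126, 108, and 123 RPM in actB DMSO, and their near-identical copies make single genes uncertain.

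Transcripts listed as markers of cells other than follicular B cells were found in nB and were mostly lower in actB DMSO. A gene with reads almost only in nB passes the filter on low values through the nB columns, and could then only be lower. The counts of lower markers below were thus partly fixed by the filter. Of 17 tested markers of T and NK cells, 16 were called lower, all at least 2-fold, and none higher. Their summed reads were 393 and 408 RPM in nB and 94.1, 99.9, and 93.3 RPM in actB DMSO, of which *Cd2*, which was at 202 and 203 RPKM in nB and 67.02, 65.9, and 64.3 RPKM in actB DMSO, held most. Since *Cd2* stayed at these levels in cells sorted as B220+, the sum cannot be read as that of T and NK cells alone. *Cd3e* was at 2.69 and 2.58 RPKM in nB and 0, 0.0286, and 0 RPKM in actB DMSO, and *Cd3g* had no reads in any actB DMSO library. Myeloid markers were called lower in 17 of 19, all but one at least 2-fold, with sums of 525 and 780 RPM in nB and 190.0, 278, and 189 RPM in actB DMSO. *Flt3*, which was at 12.2 and 12.2 RPKM in nB and 38.5, 64.6, and 38.5 RPKM in actB DMSO, was the marker called higher and held most of those reads in actB DMSO, whereas *S100a8*, *S100a9*, *Vcam1*, *C1qb*, and *C1qc* had no reads there. As *Flt3* was higher in cells sorted as B220+, the myeloid sum cannot be read as that of myeloid cells alone either. All 6 tested erythroid and platelet markers fell, from 96.7 and 337 RPM to 9.97, 14.02, and 10.1 RPM. The part of these cells in falls of genes that they share with B cells was not tested.

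Markers of other B cell subsets shifted as well. All 9 markers of marginal zone B cells were called lower, 6 at least 2-fold, from 1955 and 1970 RPM to 372, 496, and 410 RPM. *S1pr3* fell from 11.5 and 7.22 to 0.782, 0.6104, and 0.873 RPKM (log2 fold change -3.23 ± 0.18, adjusted p = 4.7e-09) and *Cd1d1* fell from 28.7 and 30.2 to 7.15, 8.57, and 7.64 RPKM (log2 fold change -1.89 ± 0.10, adjusted p = 3.56e-09). Of 6 markers of B-1 cells, *Zbtb32*, *Ctla4*, *Bhlhe41*, and *Spn* were called higher, and *Cd5* and *Sox4* lower. *Cd5*, the defining one, fell from 2.92 and 3.06 to 0.225, 0.2204, and 0.0599 RPKM (log2 fold change -2.98 ± 0.20, adjusted p = 2.4e-08). *Spn* encodes CD43, against which the starting cells of both groups had been selected, and rose from 9.16 and 8.89 to 18.6, 19.4, and 17.1 RPKM (log2 fold change 1.002 ± 0.10, adjusted p = 9.51e-07).

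**Figure D5:**
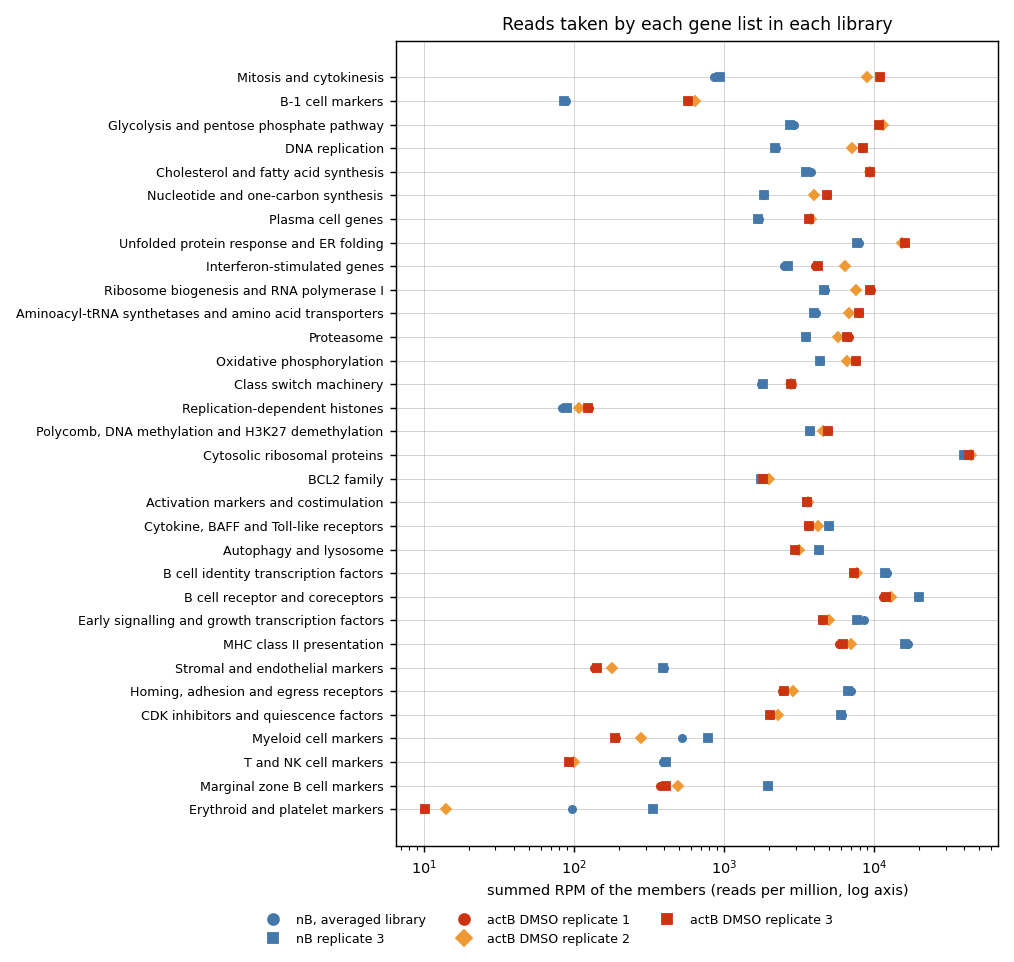
Summed RPM of the members of each list, on a log axis, in each of the 5 libraries, ordered by the ratio of actB DMSO to nB. Mitosis and cytokinesis genes took 862 and 945 RPM in nB and at least 9004 RPM in actB DMSO, while erythroid and platelet markers took 96.7 and 337 RPM in nB and at most 14.02 RPM in actB DMSO.

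The 12 largest rises and falls over all genes tested, ranked on the log2(RPKM + 0.25) scale, differed in kind. Beyond those named, the rises held *Gstt1*, a glutathione transferase, which rose from 0.251 and 0.126 to 29.2, 44.4, and 26.9 RPKM (log2 fold change 6.25 ± 0.33, adjusted p = 3.45e-09). *Tmed6*, of a family that carries cargo out of the ER, rose from 0.301 and 0.203 to 26.1, 12.6, and 29.8 RPKM (log2 fold change 5.44 ± 0.34, adjusted p = 1.61e-08), with replicate 2 under the other libraries by more than 2-fold. Both were under 0.31 RPKM in both nB libraries, so that the added 0.25 limits their fold change. *Gbp2b*, a paralog of *Gbp2* with similar sequence, rose from 0.118 and 0.0594 to 11.1, 23.1, and 10.8 RPKM (log2 fold change 5.404 ± 0.52, adjusted p = 9.14e-07). Among the falls, besides *Fosb*, *Fos*, and *Klf4*, stood genes of the marker lists. The hemoglobin gene *Hba-a2* fell from 51.8 and 165 to 0, 0, and 0.0724 RPKM (log2 fold change -8.41 ± 0.36, adjusted p = 3.81e-10), and lysozyme, *Lyz2*, a marker of macrophages and granulocytes, fell from 152 and 180.4 to 0.588, 0.408, and 0.2701 RPKM (log2 fold change -7.98 ± 0.32, adjusted p = 2.47e-10), with its near-identical neighbour *Lyz1* at 26.5 and 31.9 RPKM in nB and 0.167, 0.09802, and 0.0324 RPKM in actB DMSO. Without nB replicate 3 the log2 fold change of *Hba-a2* was -7.58, and without the averaged nB library -9.25. The complement gene *C1qc* had no reads in actB DMSO and was at least 144-fold lower than the nB mean, which was at least 79.9-fold for the averaged nB library and at least 208-fold for nB replicate 3 alone. *Ifitm6* was likewise at least 67.0-fold lower than the nB mean, all with 3 reads per library as the floor. The integrin CD11c, *Itgax*, of dendritic cells and some B cells, fell from 21.3 and 24.4 to 0.0188, 0.0464, and 0.03695 RPKM (log2 fold change -6.34 ± 0.16, adjusted p = 4.52e-12). *Rgs1*, a brake on chemokine receptor signalling, fell from 56.7 and 68.5 to 0.707, 0.738, and 0.604 RPKM (log2 fold change -6.07 ± 0.19, adjusted p = 3.04e-11), and *Cd7* and *Apol7c* were at most 0.0429 RPKM in actB DMSO. Between nB libraries *Hba-a2* and *C1qc* differed by more than 2-fold, and 79 genes were at least 2-fold higher and 27 at least 2-fold lower in nB replicate 3 than in the averaged library.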

How the data were processed

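Poly(A) RNA was prepared from 500 ng of total RNA and sequenced as 50 bp paired-end reads, which the authors mapped to mm9 with TopHat2 and counted per Entrez gene. They deposited RPM, the reads of a gene per 1000000 reads counted in its library. Since 100% of the values were whole reads within 0.1 read, reads could be recovered. Dividing RPM by the gene length in kilobases, as the table lists it, gave RPKM. The 92 genes without a symbol (up to 0.0905% of a library) were left out. The 14 libraries of all 5 groups, after averaging of nB replicates 1 and 2, entered 1 fit of log2(RPKM + 0.25) by limma 3.58.1 (R 4.3.3; lmFit, a contrast, and eBayes with the trend option), with 9 residual degrees of freedom. Tests were two-sided, with Benjamini-Hochberg adjustment over 11299 genes. Tested on simulated data for this comparison, limma recovered 199 and edgeR 200 of 200 changed genes among 11299. These numbers do not include false calls. The changed genes were drawn from those with many reads, were changed at least 2-fold, and had the same simulated spread setting as all others. Recovery of smaller changes and of genes with few reads was thus not tested. Recovery where most genes change, as was called in the real libraries (77.2% of genes), was not tested. As an alternative, edgeR 4.0.16 (quasi-likelihood, TMM factors) on the recovered reads of 11146 genes (3 RPM or more in 3 or more libraries) called 8760 genes. Other alternatives were another pseudocount or filter, median, quantile, or RLE scaling, the trend, the groups fitted, a replicate block, and each library left out. The genes named are preset members of each list, its largest rise, largest fall, and highest level, all cell type markers, and the 12 largest rises and falls (called, at least 5 RPKM in the higher group, at least 200 bases long, and with no overlap between libraries of the groups). Some genes that this rule names are not reported here. Members and lists were chosen with earlier results of these data known, and the lists were written from general knowledge. A count of 0 allows up to 3 reads, and such floors cover counting error only. Promoter sequences are those of RefSeq (GRCm38.p6), and gene coordinates are 1-based in mm9.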

Additional observations from a re-analysis of the deposited data

How the results depend on the processing

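Over 20 alternatives, 1 of them chosen after seeing the data (without replicate 2 of both actB groups), 7762 to 11221 genes were called, 4180 to 5019 of them higher and 3582 to 6202 lower. The count of lower genes moved by over 1.5 times only with no filter on low values (6202, over 18752 genes tested). At least 2-fold rises ranged from 1354 to 1800 and falls from 1185 to 1934. Leaving out 1 library gave 7982 to 8747 genes called, 4191 to 4625 higher, 3752 to 4122 lower, 1625 to 1754 at least 2-fold higher, and 1450 to 1596 at least 2-fold lower. Where 1 nB library was left out, the lone one was assumed to vary like the other groups. In each alternative, every gene called in both it and the fit reported had the same direction (7745 to 8706 shared genes over the alternatives). Deviations from the group means correlated between cultured libraries of the same number (r from 0.158 to 0.713) more than of different numbers (-0.603 to 0.370). Since the averaged nB library stands under numbers 1 and 2, its number is unknown, and with the replicate block 9224 genes were called with it under number 1 and 8998 under number 2. Of 1280 list counts under alternatives 37 moved by over 1.5 times. Lower calls among ribosomal proteins went from 9 to 14 with the block under number 1, 17 by edgeR with TMM factors, and 19 with quantile normalization. Lower calls among interferon-stimulated genes went from 6 to 13 with the block under number 1, histones higher went from 12 to 6 by edgeR, and T and NK cell markers lower from 16 to 10 with an RPKM of at least 3. Log2 fold changes that changed sign were those of genes not called. With quantile normalization they were -0.035 for *Cd40*, -0.0038 for *Nfkb1*, -0.016 for *Sdha*, -0.0095 for *Tnfrsf13c*, and 0.12 for *Tnfrsf17*. For *Mx1* they were 0.084 and 0.050 by edgeR with TMM and RLE factors, 0.14 with the replicate block under number 2, and -0.11 reported, with leave-one-out values from -0.68 to 0.24. For *Vars* they were 0.021 and 0.0034 with the block under numbers 1 and 2, with leave-one-out values from -0.037 to 0.031, and 0.036 without the averaged nB library. For *Scd1* the value was 0.061 without that library. *Bach2* was also not called with a pseudocount of 0.05 (adjusted p = 0.0531), with no filter (0.0636), or without the trend (0.0525), and *Bcl2* not with quantile normalization (0.0649) or RLE factors (0.0686). The causes of these changes were not tested. With 3 reads worth up to 0.131 RPM, levels near 0 in actB DMSO are known only as under that floor.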

Other observations

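Promoters of the replication-dependent histones, for 22 of the 24 genes tested, held TTTGAA in 40.9% and CCAAT in 86.4% of 22 entries, against 10.9% and 35.9% in promoters of all genes tested.

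Among the genes fixed for the lists, the thymidylate synthase gene *Tyms* rose from 1.53 and 1.54 to 22.1, 15.7, and 21.5 RPKM (log2 fold change 3.47 ± 0.16, adjusted p = 1.06e-09), and the chromatin remodeller *Hells*, which acts with the replication machinery, rose from 6.83 and 6.71 to 91.1, 74.7, and 89.5 RPKM (log2 fold change 3.598 ± 0.11, adjusted p = 1.85e-11). *Btg2*, an antiproliferative factor, fell from 138 and 123 to 40.6, 52.2, and 40.1 RPKM (log2 fold change -1.56 ± 0.11, adjusted p = 3.79e-08), and was at 101 RPKM in Pb with DMSO. *Foxp1* fell from 63.97 and 61.1 to 30.6, 29.96, and 29.5 RPKM (log2 fold change -1.05 ± 0.05, adjusted p = 1.08e-09). The autophagy gene *Wipi1* was the largest rise of a list that mostly fell, from 0.384 and 0.372 to 1.55, 2.55, and 1.37 RPKM (log2 fold change 1.68 ± 0.25, adjusted p = 4.56e-05), and was at 15.8 RPKM in Pb with DMSO.

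The log2 ratio of actB DMSO replicate 2 to the mean of the other two libraries had a median of 0.79 over the 34 interferon-stimulated genes and of -0.003 over all genes tested.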
